A study of Mus musculus with 9 samples.

Results

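The 9 genes described here belong to the Slco family, which encodes the organic anion transporting polypeptides: Slco1a1, Slco1a4, Slco1a5 and Slco1a6, which lie side by side on chromosome 6, and Slco1c1, Slco2a1, Slco2b1, Slco3a1 and Slco4a1. They were taken by symbol from the 54232 genes of the deposited count table, which holds 15 genes named Slco. The 9 genes were chosen by their levels and their differences between ages in these same libraries, so those differences are given as a description, and no p-value on a member supports anything. Of the 9 members, 7 passed the filter on low counts, 3 of the 4 in the Slco1a cluster and 4 of the 5 outside it, and Slco1a1 and Slco1c1 did not.

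Organic anion transporting polypeptides are membrane proteins that carry large amphipathic anions into cells, among them bile salts, steroid sulfates and glucuronides, thyroid hormones, prostaglandins and many drugs. The Slco1a genes of rodents arose by local duplication and are best known from liver, kidney, intestine and the barriers of the brain. Once inside a cell, such anions may be conjugated or broken down, and pumps of the Abcc family export the products.

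The RNA came from lacrimal glands, the glands beside the eye that secrete the watery part of tears, of female C57BL/6J mice aged 2 months (8 weeks in the sample titles), 12 months or 24 months. Mice of every age were fed ad libitum under a 12-hour light and 12-hour dark cycle, no treatment or genetic change is labelled, and each age has 3 libraries. The series is about lymphoid structures that form in the aged gland. Whether a library holds 1 mouse or a pool is not stated, so p-values measure the spread between libraries, which may be in part technical.

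Libraries held 40516863 to 42573877 counts. Lacrimal acinar markers summed to 2120 to 2240 CPM (CPM is a count scaled to a common library size) at 2 months, 2090 to 2180 at 12 months and 1680 to 2400 at 24 months, and all 5 of the measured ones were well above 0. Some libraries stood apart by transcripts of other tissues. Summed salivary gland markers ranged from 0.573 to 845 CPM at 2 months, from 2.07 to 379 at 12 months and from 1.17 to 252 at 24 months, and skeletal muscle markers reached 47.8 CPM at 12 months against at most 0.499 at the other ages. B cell markers rose from at most 0.274 CPM at 2 months to 12.3 to 110 CPM at 12 months and 10.8 to 18.2 CPM at 24 months. In bulk tissue, fewer cells of a type and less RNA per cell cannot be told apart. The 3 libraries richest in salivary transcripts were 2 months replicate 3, 12 months replicate 2 and 24 months replicate 2. Results without them are given for the members where a call was lost or a direction turned. Calls on other genes were not checked without these libraries.

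The sequences around the starts of the members that changed most are shown first, because Slco1a5 and Slco1a6 fell with age while Slco1a4 of the same cluster did not. The rise of Slco1a4 depended on settings, as given below. Each line is a RefSeq promoter window on GRCm38.p6, 250 bases before to 50 after an annotated start, written 5′ to 3′ on the strand of the gene. Capitals mark matches to the motifs named below.
Slco1a6, chr6:142186100-142186399, minus strand: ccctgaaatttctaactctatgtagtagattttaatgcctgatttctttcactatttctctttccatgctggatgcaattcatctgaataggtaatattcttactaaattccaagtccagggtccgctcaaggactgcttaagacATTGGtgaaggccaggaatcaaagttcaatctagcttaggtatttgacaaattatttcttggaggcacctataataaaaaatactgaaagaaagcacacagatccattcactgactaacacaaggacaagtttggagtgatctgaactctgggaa
Slco1a5 outer start, chr6:142322932-142323231, minus strand: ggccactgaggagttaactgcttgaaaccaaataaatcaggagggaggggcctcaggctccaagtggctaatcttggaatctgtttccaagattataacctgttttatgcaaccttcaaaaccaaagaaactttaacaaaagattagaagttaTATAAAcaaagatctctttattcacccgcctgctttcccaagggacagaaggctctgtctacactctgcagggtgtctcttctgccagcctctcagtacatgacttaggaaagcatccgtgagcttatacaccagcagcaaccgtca
Slco1a5 inner start, chr6:142278825-142279124, minus strand: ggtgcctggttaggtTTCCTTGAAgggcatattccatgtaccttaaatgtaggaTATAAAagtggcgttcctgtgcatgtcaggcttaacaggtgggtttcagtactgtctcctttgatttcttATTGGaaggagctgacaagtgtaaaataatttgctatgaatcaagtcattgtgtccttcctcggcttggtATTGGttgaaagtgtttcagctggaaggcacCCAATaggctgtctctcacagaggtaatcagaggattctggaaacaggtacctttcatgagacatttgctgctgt
Slco1a4, chr6:141856171-141856470, minus strand: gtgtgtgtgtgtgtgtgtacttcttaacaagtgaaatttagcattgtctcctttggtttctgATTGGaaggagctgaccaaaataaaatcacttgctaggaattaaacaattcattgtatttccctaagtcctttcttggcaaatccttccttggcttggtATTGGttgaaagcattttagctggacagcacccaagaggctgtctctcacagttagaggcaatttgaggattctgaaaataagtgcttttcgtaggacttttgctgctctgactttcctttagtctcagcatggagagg
Slco4a1, chr2:180455995-180456294, plus strand: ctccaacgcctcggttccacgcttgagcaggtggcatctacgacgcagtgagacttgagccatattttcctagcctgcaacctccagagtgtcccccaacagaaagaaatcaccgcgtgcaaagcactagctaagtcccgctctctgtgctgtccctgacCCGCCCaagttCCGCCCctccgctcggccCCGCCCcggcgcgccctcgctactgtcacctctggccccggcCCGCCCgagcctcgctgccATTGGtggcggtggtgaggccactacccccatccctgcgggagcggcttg

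Windows were found for 8 of the 9 members, 12 windows in all. The RefSeq start of Slco1a6 and the inner start of Slco1a5 lie inside the spans that GENCODE M21 gives these genes. The inner Slco1a5 window and the Slco1a4 window aligned over 214 bases with 83.2% of them identical, although Slco1a5 fell with age and Slco1a4 did not. No other pair of the 12 windows aligned over more than 37 bases. The Slco1a6 window shared no stretch longer than 19 aligned bases with the Slco1a4 window, and 9 with the inner Slco1a5 window. The chromosome 6 windows were poor in G and C, at 37.3% for Slco1a6, 44.3% and 43.3% for Slco1a5 and 40.7% for Slco1a4, against a median of 52.7% over all 32851 windows. The Slco4a1 window shown held 65.3%, and a second Slco4a1 window, at chr2:180460728-180461027, 55.7%.

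Short motifs were searched on both strands, as letters only. The TATA box letters TATAAA, found in 13.6% of all windows, lie at position -97 of the outer and -196 of the inner Slco1a5 window, counted from the annotated start, and are not in the windows of Slco1a6 or Slco1a4. The CCAAT box, found in 37.4% of windows, lies 3 times in the inner Slco1a5 window (-126, -56 and -25), in Slco1a4 at -188 and -89, in Slco1a6 at -105 and in the Slco4a1 window shown at 0. The STAT-type palindrome TTCNNNGAA, in 8.3% of windows, lies at -235 of the inner Slco1a5 window. The Slco4a1 window shown holds the GC box GGGCGG 4 times (-90, -79, -61 and -19), a motif of 35.7% of windows. Other letters searched were the nuclear receptor half-site AGGTCA (16.3% of windows), the steroid receptor half-site TGTTCT (19.0%), the letters GTTAAT (7.1%) and the forkhead-type TGTTTAC (3.65%). None of these 4 is in the 5 windows shown, while the second Slco4a1 window holds AGGTCA at -166 and TGTTCT at 30. No printed match overlaps another, and a match of letters is a description of sequence only.

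The coding sequences show how alike the cluster is. Slco1a1, Slco1a4, Slco1a5 and Slco1a6 each have 2010 coding bases and are 83.9% to 89.4% identical in pairs, with Slco1a5 and Slco1a6 at 86.5% and Slco1a4 and Slco1a5 at 89.4%. Every other pair of members is 56.6% to 64.7% identical. Stretches of 100 bases, the read length, that occur unchanged in another gene made up 1.96% of those of Slco1a5, 1.82% of Slco1a6, 1.07% of Slco1a4 and 0.814% of Slco1a1. How the authors' counting treated such reads is not given in the sources used here, so values of the Slco1a genes carry that uncertainty.

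Slco1a6 was the member with the largest fall. It encodes a transporter known mainly from mouse kidney, and lies at chr6:142085761-142208521 on the minus strand (ENSMUSG00000079262). Its counts were 460, 477 and 509 in the 2-month libraries (replicates 1, 2 and 3, as throughout), then 419, 387 and 451 in those of 12 months, then 54, 63 and 42 in the oldest. All 3 libraries of 24 months lay far below the other 6, and the 12-month libraries also lay below every 2-month library once scaled for depth. Scaled to CPM, the mean was 13.3 ± 1.6 (SD, n = 3) at 2 months, 9.21 ± 1.19 at 12 months and 1.23 ± 0.337 at 24 months. The log2 fold change was -0.53 (SE 0.18, edgeR adjusted p = 0.092) from 2 to 12 months, -3.44 (SE 0.21, adjusted p = 6.65e-06) from 2 to 24 months and -2.91 (SE 0.20, adjusted p = 4.17e-05) from 12 to 24 months. In linear terms its level at 24 months was 10.8-fold lower than at 2 months and 7.5-fold lower than at 12 months.

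Slco1a5, a bile salt and organic anion carrier known from intestine and kidney, fell over the same interval. It lies next to Slco1a6 at chr6:142234227-142322981 on the minus strand (ENSMUSG00000063975). The counts were 550, 438 and 692 in the 2-month libraries, then 535, 939 and 1056 in those of 12 months, then 102, 71 and 133 in the oldest. The first 2 ages overlapped and the oldest libraries lay apart. Mean CPM was 15.4 ± 3.66 at 2 months, 18.4 ± 5.99 at 12 months and 2.33 ± 0.605 at 24 months. Its log2 fold change was 0.26 (SE 0.24, adjusted p = 0.577) from 2 to 12 months, -2.72 (SE 0.27, adjusted p = 0.000139) from 2 to 24 months and -2.98 (SE 0.27, adjusted p = 0.000121) from 12 to 24 months, which is 6.61-fold and 7.92-fold lower at 24 months.

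Both genes ranked among the most lowered of the 14944 genes tested, when genes are ordered by log2 fold change. From 2 to 24 months Slco1a6 was in place 12 from the lowest and Slco1a5 in place 29. From 12 to 24 months Slco1a5 was in place 19 and Slco1a6 in place 23. The 2 later comparisons share the 24-month libraries. Both genes kept adjusted p under 0.05 in these 2 comparisons under each of 19 alternative settings, among them each library left out in turn, and without the salivary-rich libraries. Of the acinar markers, from 2 to 24 months 1 of 5 rose (Chrm3, the muscarinic receptor that drives tear secretion, log2 0.45, adjusted p = 0.00839) and 1 fell (Bhlha15, a secretory cell transcription factor, log2 -0.47, adjusted p = 0.0127). Over all tested genes 9.82% were called higher and 7.56% lower in that comparison. The water channel Aqp5 was at 279 ± 24.4 CPM at 2 months and 264 ± 11.1 at 24 months. The remaining acinar markers were Slc12a2, at 28.1 ± 1.36 and 37.1 ± 10.7 CPM, and Ltf, at 1320 ± 61.9 and 1340 ± 355 CPM. None of 6 ductal markers was called in that comparison (1 lower at unadjusted p under 0.05, 1 lower by DESeq2 and 1 lower by limma voom), and their sum was 620 to 772 CPM at 2 months and 560 to 606 at 24 months.

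**Figure D1:**
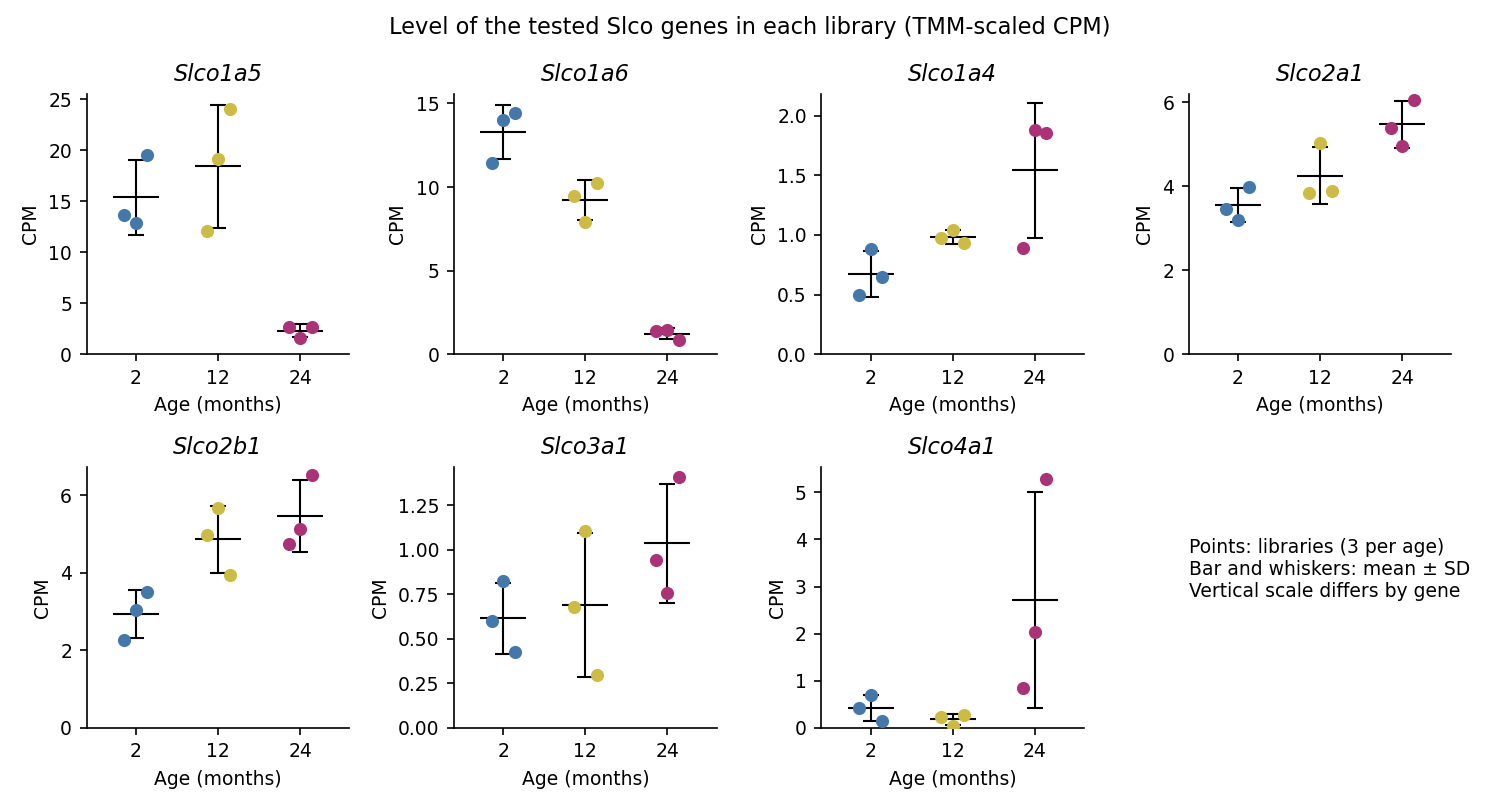
TMM-scaled CPM of the 7 tested Slco genes against age in months, with 1 point per library and a bar and whiskers for the mean ± SD of 3 libraries. Slco1a5 and Slco1a6 are low in all 3 libraries of 24 months, whereas Slco4a1 is high there with 1 library at 5.28 CPM.

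Slco1a4, the cluster member known from brain capillary endothelium and liver, was scarce and moved the other way. It lies at chr6:141805440-141856199 on the minus strand (ENSMUSG00000030237). The counts were 20, 30 and 23 in the 2-month libraries, then 43, 51 and 41 in those of 12 months, then 34, 82 and 92 in the oldest. In CPM the lowest 24-month library (0.89) sat just above the highest 2-month library (0.881), and the 12-month libraries (0.932 to 1.04) lay within the range of 24 months. The log2 fold change from 2 to 24 months was 1.19 (SE 0.37, adjusted p = 0.0438), 2.29-fold higher. That call was lost under 12 of the 19 alternatives, among them leaving out any library other than 24 months replicate 1. Without the salivary-rich libraries the log2 fold change was 1.01 (adjusted p = 0.317). Over the alternatives adjusted p ran from 0.0186 to 0.317 and the log2 fold change from 1.01 to 1.55. From 2 to 12 months the log2 fold change was 0.54 (adjusted p = 0.426) and from 12 to 24 months 0.65 (adjusted p = 0.356).

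Slco1a1, a steroid sulfate and bile salt carrier of liver and kidney (chr6:141907282-141946962, minus strand, ENSMUSG00000041698), had 0 counts in all 9 libraries. With 3 counts over an age group as the limit, its level could still have been up to 0.0239 CPM at 2 months, 0.0235 at 12 months and 0.0245 at 24 months, which covers counting error only. Slco1c1, the thyroxine carrier of the brain barriers (chr6:141524368-141570177, plus strand, ENSMUSG00000030235), had 0 counts in the youngest glands, then 0, 1 and 2 in the 12-month libraries and 0, 3 and 4 in the oldest. The sum of 7 at 24 months has an exact Poisson interval at 95% of 2.81 to 14.4 counts, and the sum of 3 at 12 months one of 0.619 to 8.77. With so few counts Slco1c1 was filtered out, so a difference between ages was not tested. Slco1b2, the liver transporter of the same cluster, also had 0 counts throughout.

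Outside the cluster, Slco4a1 had the largest difference. It encodes a broadly expressed carrier of thyroid hormones and prostaglandins and lies at chr2:180456245-180474867 on the plus strand (ENSMUSG00000038963). The counts were 17, 24 and 5 in the 2-month libraries, then 10, 2 and 12 in those of 12 months, then 32, 89 and 262 in the oldest. All 3 libraries of 24 months were above the other 6 in CPM, but they spread widely, at 0.838, 2.04 and 5.28, and replicate 3 held most of the counts. The log2 fold change was -1.24 (SE 0.81, adjusted p = 0.403) from 2 to 12 months, 2.69 (SE 0.72, adjusted p = 0.0245) from 2 to 24 months and 3.92 (SE 0.78, adjusted p = 0.0147) from 12 to 24 months. The last value was in place 35 from the highest of all tested genes. Without 24 months replicate 3 the log2 fold changes were 1.77 (adjusted p = 0.147) and 3.01 (adjusted p = 0.0616), so both calls were lost. Without the salivary-rich libraries they were 2.46 (adjusted p = 0.109) and 3.63 (adjusted p = 0.0899), and without the muscle-bearing 12-month libraries, replicates 1 and 3, the second was 5.98 (adjusted p = 0.117). Over all 19 alternatives adjusted p ran from 2.08e-08 to 0.147 from 2 to 24 months and from 7.42e-15 to 0.117 from 12 to 24 months. Leaving out 2 months replicate 1 or 3 ended the first call (adjusted p = 0.0646 and 0.0895), and leaving out 12 months replicate 1 or 2 the second (adjusted p = 0.0578 and 0.0547).

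Slco2b1 carries steroid sulfates and is expressed in many tissues. It lies at chr7:99657804-99711340 on the minus strand (ENSMUSG00000030737). Its counts were 91, 104 and 124 in the 2-month libraries, then 220, 278 and 174 in those of 12 months, then 181, 224 and 324 in the oldest. Every 12-month and 24-month library was above every 2-month library in CPM (2.27 to 3.51 at 2 months, 3.95 to 5.68 at 12 months and 4.74 to 6.52 at 24 months), and the older ages overlapped. The log2 fold change was 0.73 (SE 0.21, adjusted p = 0.0563) from 2 to 12 months, 0.90 (SE 0.21, adjusted p = 0.0146) from 2 to 24 months and 0.17 (SE 0.21, adjusted p = 0.723) from 12 to 24 months. The call from 2 to 24 months was lost without 24 months replicate 3 (log2 0.75, adjusted p = 0.0637) and without the salivary-rich libraries (log2 1.09, adjusted p = 0.0621), and adjusted p ran from 0.000524 to 0.0637 over the 19 alternatives. Macrophage markers were also higher at 24 than at 2 months. Of 8 of them, 7 were called higher from 2 to 24 months, the summed level was 53.9 to 71.9 CPM at 2 months, 101 to 126 at 12 months and 151 to 216 at 24 months, and none was at 0. From 2 to 12 months 4 of the 8 were called higher and Cd163 lower (log2 -2.59, adjusted p = 0.0103). From 12 to 24 months 2 of the 8 were called higher (Cd163 and Mrc1) and 0 lower, with a median log2 fold change of 0.67. Over all tested genes 5.41% were called higher and 2.52% lower from 2 to 12 months. The shares called higher were 9.82% from 2 to 24 months and 2.79% from 12 to 24 months. The part of macrophages in the Slco2b1 difference was not tested. An antisense gene, Gm15635, shares 471 exon bases with Slco2b1 and drew 21, 20 and 26 counts in the 2-month libraries, 4, 10 and 12 in the 12-month ones and 47, 73 and 71 in the oldest. Whether counting used strand is not given in the sources used here, so reads of the shared part cannot be assigned with certainty.

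Slco2a1 encodes the prostaglandin transporter, which clears prostaglandins from the extracellular space, and is known from endothelium. It lies at chr9:102988712-103096002 on the plus strand (ENSMUSG00000032548). The counts were 139, 109 and 141 in the 2-month libraries, then 170, 246 and 171 in those of 12 months, then 206, 216 and 301 in the oldest. In CPM the 24-month libraries (4.95 to 6.06) lay above all 2-month libraries (3.2 to 3.99), while the 12-month libraries (3.84 to 5.03) overlapped both. The log2 fold change from 2 to 24 months was 0.62 (SE 0.17, adjusted p = 0.0294), 1.54-fold higher, with 0.26 (adjusted p = 0.412) and 0.36 (adjusted p = 0.279) for the 2 steps within it. The call was lost under 7 of 19 alternatives, with adjusted p from 0.0156 to 0.107, among them without 2 months replicate 1 (adjusted p = 0.0648) or 2 (0.106), without 24 months replicate 1 (0.0563) or 3 (0.107) and without the salivary-rich libraries (0.0802). Of 8 endothelial markers none was called from 2 to 24 months by edgeR (0 at unadjusted p under 0.05, 0 by DESeq2 and 0 by limma voom), and their sum was 29.4 to 37.4 CPM at 2 months and 33.9 to 41.8 at 24 months. Fibroblast markers did move over that interval, with 3 of 6 called higher (Pdgfra, Lum and Dcn) and a sum of 78.9 to 141 CPM at 2 months and 133 to 212 at 24 months. All 4 adipocyte markers were called higher as well, with a sum of 0.972 to 1.17 CPM at 2 months and 5.5 to 15.9 at 24 months. Over all tested genes edgeR called 9.82% higher in that comparison. DESeq2 called 3 fibroblast and 4 adipocyte markers higher, and limma voom 1 of each. None of these markers was at 0 on average at 24 months, and the part of either cell type in the Slco2a1 difference was not tested.

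Slco3a1, a widely expressed carrier of prostaglandins and thyroxine (chr7:74275419-74554780, minus strand, ENSMUSG00000025790), overlapped between all ages. Its counts were 24, 28 and 15 in the 2-month libraries, then 30, 54 and 13 in those of 12 months, then 36, 33 and 70 in the oldest. The log2 fold change was 0.18 (SE 0.49, adjusted p = 0.876) from 2 to 12 months, 0.76 (SE 0.49, adjusted p = 0.319) from 2 to 24 months and 0.58 (SE 0.48, adjusted p = 0.566) from 12 to 24 months. Without the salivary-rich libraries these were -0.54, 0.74 and 1.28 (adjusted p = 0.791, 0.506 and 0.42), so the first turned its sign. Of the 6 Slco genes that are not members, only Slco4c1 was tested, a carrier known from kidney. It was at 3.12 ± 0.999 CPM at 2 months, 2.66 ± 0.634 at 12 months and 2.5 ± 0.78 at 24 months, with adjusted p of 0.72, 0.527 and 0.913. The other 5 had at most 13 counts in any library (Slco5a1).

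The cluster and the other members can be set side by side by counts. From 2 to 12 months edgeR called 0 of the 7 tested members, with 1 higher (Slco2b1) and 1 lower (Slco1a6) at unadjusted p under 0.05, the same 2 by DESeq2 and Slco1a6 alone by limma voom. Over all tested genes 5.41% were called higher and 2.52% lower in that comparison. From 2 to 24 months, 1 of 3 tested cluster members was called higher and 2 lower, against 3 higher and 0 lower of 4 outside the cluster, with 9.82% of all genes called higher and 7.56% lower. From 12 to 24 months, 2 of 3 cluster members were called lower and 0 higher, against 1 higher and 0 lower of 4 outside, with 2.79% of all genes higher and 1.6% lower. Since the members were chosen by these differences, nothing is read from the counts. The median log2 fold change from 2 to 24 months was -2.72 in the cluster, 0.83 outside it and 0.01 over all genes. From 12 to 24 months the medians were -2.91, 0.47 and -0.02, and from 2 to 12 months they were 0.26, 0.22 and 0.01. Within the cluster Slco1a4 differed from Slco1a5 and Slco1a6 in direction in both comparisons with 24 months. Its only call, from 2 to 24 months, was lost under 12 of the 19 alternatives. Slco1a1 was not detected.

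**Figure D2:**
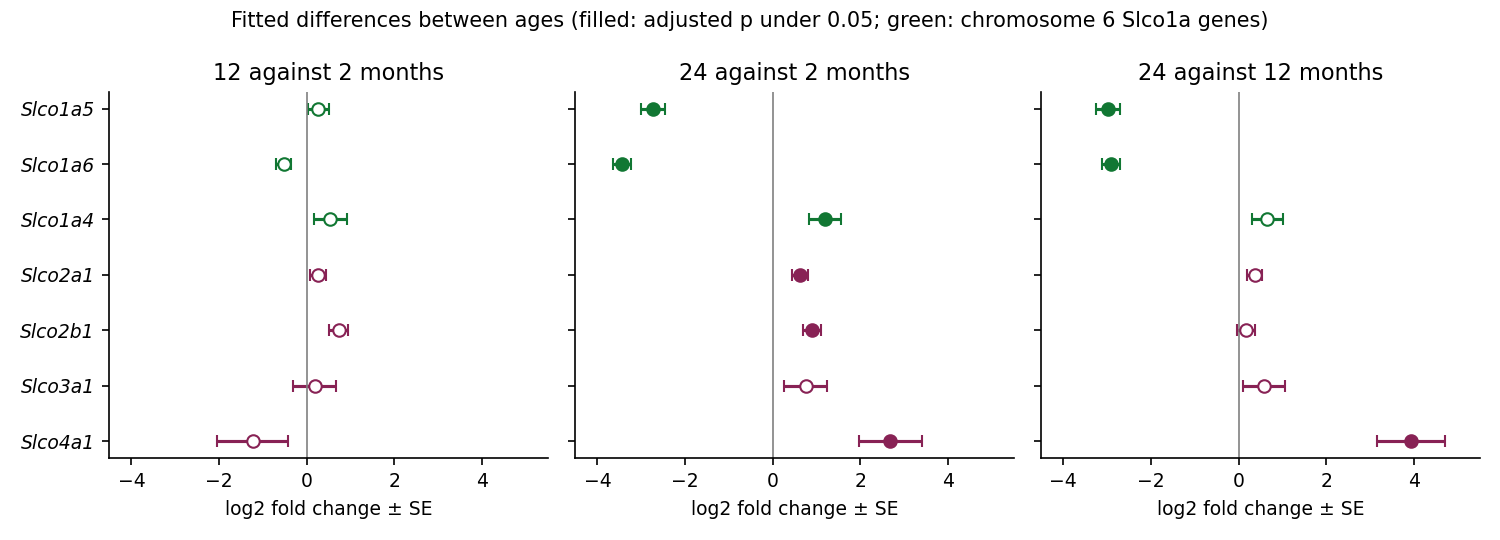
Fitted log2 fold change ± SE of the 7 tested Slco genes in each comparison of ages, with filled points for adjusted p under 0.05 and green for the Slco1a genes of chromosome 6. Slco1a5 and Slco1a6 lie between -2.72 and -3.44 in both comparisons with 24 months, and no point is filled from 2 to 12 months.

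Levels were compared between genes per length, as CPM per kilobase of exons. The exons of all transcripts were joined, and the order of genes and their shares of a sum depend on that length. For Slco2a1 the joined exons are 13545 bases, against 7023 different stretches of 100 bases in its 1 coding transcript. Other lengths were not tested. Among the 7 tested members the order at 2 months was Slco1a5 (4.13 ± 0.984), Slco1a6 (3.49 ± 0.419), Slco2b1 (0.494 ± 0.105), Slco2a1 (0.262 ± 0.0297), Slco1a4 (0.106 ± 0.03), Slco4a1 (0.0882 ± 0.0587) and Slco3a1 (0.0726 ± 0.0235). The first pair did not differ beyond their spread, nor did the last 3. At 12 months it was Slco1a5 (4.95 ± 1.61), Slco1a6 (2.42 ± 0.313), Slco2b1 (0.817 ± 0.146), Slco2a1 (0.314 ± 0.0497), Slco1a4 (0.153 ± 0.00875), Slco3a1 (0.0817 ± 0.0477) and Slco4a1 (0.0375 ± 0.0255). Only the last pair overlapped between libraries at that age. At 24 months Slco2b1 came first (0.917 ± 0.157), before Slco1a5 (0.625 ± 0.162), Slco4a1 (0.566 ± 0.478), Slco2a1 (0.404 ± 0.0412), Slco1a6 (0.324 ± 0.0885), Slco1a4 (0.24 ± 0.0878) and Slco3a1 (0.122 ± 0.0397). The spread of Slco4a1 at that age takes in the mean of each of the other 6, and its highest library (1.1) stood with the highest of Slco2b1 (1.09), so its place in the order is not settled. Slco4c1, which is not a member, was at 0.636 ± 0.204 at 2 months, 0.542 ± 0.129 at 12 months and 0.509 ± 0.159 at 24 months, above Slco2b1 in the mean at 2 months only.

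Slco1a5 and Slco1a6 together made up 80.8%, 82.3% and 82.9% of the per-length level of all 15 Slco genes in the 2-month libraries and 74.3%, 75.7% and 85.1% at 12 months. At 24 months the shares were 35.8%, 23.2% and 20.4%. The summed level was 8.28, 8.67 and 10.9 CPM per kilobase in the 2-month libraries, 7.71, 9.55 and 10.7 in those of 12 months and 3.05, 3.52 and 4.61 in the oldest. Without the pair it was 1.59, 1.54 and 1.86 in the 2-month libraries, 1.98, 2.32 and 1.6 in those of 12 months and 1.96, 2.7 and 3.67 in the oldest. The family total was lower at 24 months, while the sum of the other genes was higher in every 24-month library than in any 2-month library. The ratio of Slco1a5 to Slco1a6 per length was 1.22, 0.939 and 1.39 in the 2-month libraries, 1.31, 2.48 and 2.4 in those of 12 months and 1.93, 1.15 and 3.24 in the oldest, with overlap between the ages.

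**Figure D3:**
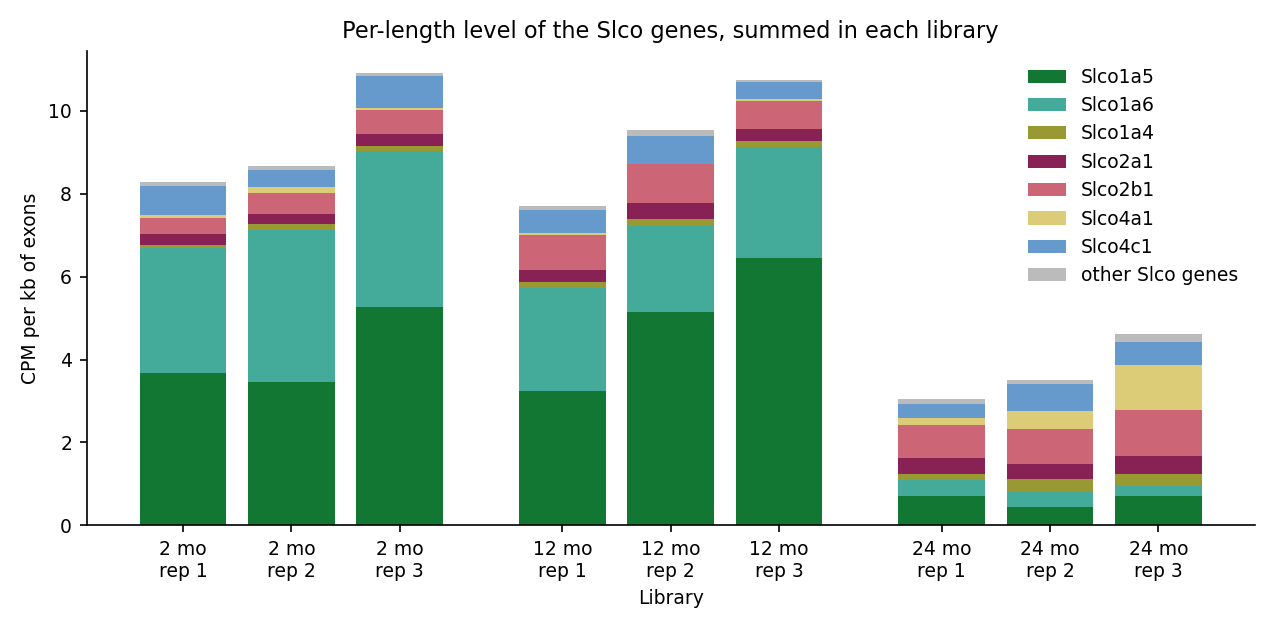
Summed level of the Slco genes in each of the 9 libraries, in CPM per kilobase of exons. Slco1a5, Slco1a6, Slco1a4, Slco2a1, Slco2b1, Slco4a1 and Slco4c1 have their own segments, and the other Slco genes share a segment. The Slco1a5 and Slco1a6 segments fill 74.3% to 85.1% of the bar at 2 and 12 months and 20.4% to 35.8% at 24 months.

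The chromosome 6 neighbourhood was examined from 500 kb before the first to 500 kb after the last Slco1 gene, chr6:141024368-142822981, where 21 protein-coding genes are annotated. Of the 15 that are not Slco genes, 7 were tested. From 2 to 24 months 2 of the 7 were called higher and 0 lower, with 2 higher by DESeq2 and 1 by limma voom. Over all tested genes 9.82% were called higher and 7.56% lower in that comparison. Recql, a DNA helicase gene, rose from 1.26 ± 0.452 to 2.57 ± 0.67 CPM (log2 1.02, SE 0.30, adjusted p = 0.0383), and Ldhb, a lactate dehydrogenase gene, from 6.25 ± 0.535 to 10.3 ± 3.72 CPM (log2 0.72, SE 0.22, adjusted p = 0.043). At unadjusted p under 0.05 in that comparison 4 were higher and 1 lower. From 12 to 24 months edgeR called 0 of the 7, with 0 at unadjusted p under 0.05, 0 by DESeq2 and 0 by limma voom, and their log2 fold changes ran from -0.15 to 0.29. From 2 to 12 months 0 were called, with 2 higher at unadjusted p under 0.05 and 0 by DESeq2 or limma voom. The shares over all tested genes were 2.79% higher and 1.6% lower from 12 to 24 months, and 5.41% and 2.52% from 2 to 12 months. The lowest log2 fold change of a tested neighbour from 2 to 24 months was -0.32, in Golt1b, a Golgi transport gene (adjusted p = 0.0752). Gm6614, a predicted gene between Slco1a1 and Slco1a6, and Iapp, which lies inside the span of Slco1a5, had at most 1 and 7 counts in any library.

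**Figure D4:**
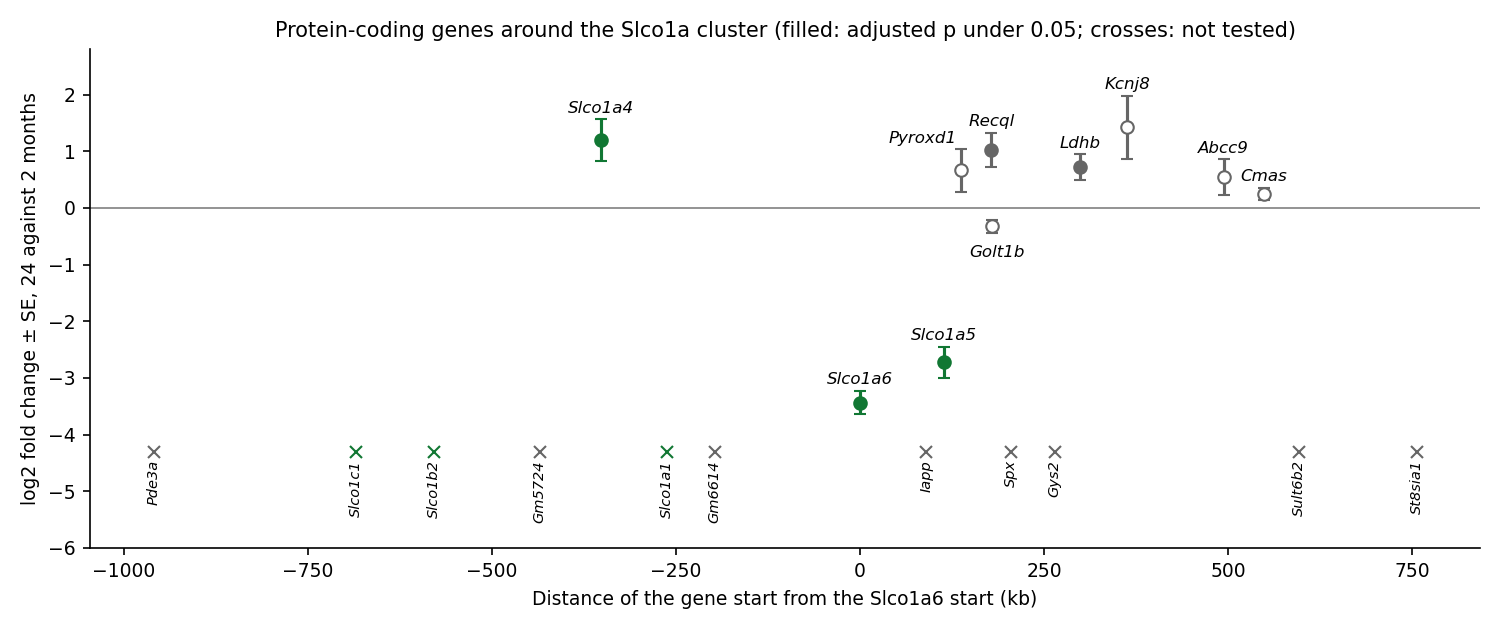
Log2 fold change ± SE from 2 to 24 months of protein-coding genes around the Slco1a cluster, against the distance of each gene start from that of Slco1a6 in kb. Slco genes are green, filled points have adjusted p under 0.05, and crosses at the foot mark genes with too few counts to test. Slco1a6 and Slco1a5 lie at -3.44 and -2.72, and the 7 tested neighbours between -0.32 and 1.42.

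Genes that share substrates with the transporters were followed in 6 lists. Over all tested genes edgeR called 5.41% higher and 2.52% lower from 2 to 12 months. These shares were 9.82% and 7.56% from 2 to 24 months, and 2.79% and 1.6% from 12 to 24 months. Among other transporters of organic anions and bile salts, only 2 of 12 passed the filter, and edgeR called 0 of them in any comparison. At unadjusted p under 0.05 the only one was lower from 12 to 24 months, and DESeq2 and limma voom each called 1 lower in that comparison. DESeq2, which filters genes in another way, called 1 of the 12 higher from 2 to 24 months. The bile salt export pump Abcb11 was at 1.49 ± 0.157 CPM at 2 months and 0.999 ± 0.239 at 24 months, and the conjugate pump Abcc2 at 1.02 ± 0.17 and 0.534 ± 0.404. The liver and kidney uptake carriers Slc10a1, Slc22a6 and Slc22a8 were at most 0.0504 CPM on average at any age. The median log2 fold change of the 2 tested genes was 0.00, -0.76 and -0.76 in the 3 comparisons, in the order used above.

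Thyroid hormone genes held the largest fold change among the genes tested in the 6 lists. Of 8 tested, 1 was called lower from 2 to 12 months, 1 higher and 1 lower from 2 to 24 months and 2 higher from 12 to 24 months. Dio1, the deiodinase that turns thyroxine into its active form, drew 10, 6 and 7 counts in the 2-month libraries, 6, 5 and 1 in the 12-month ones and 4086, 4760 and 7374 in the oldest. Its log2 fold change was 9.16 (SE 0.24, adjusted p = 7.02e-10) from 2 to 24 months and 10.39 (SE 0.26, adjusted p = 3.87e-10) from 12 to 24 months. Thrb, a thyroid hormone receptor, fell from 34.1 ± 1.78 to 26.3 ± 3.16 CPM from 2 to 24 months (log2 -0.38, adjusted p = 0.0287). Median log2 fold changes of the list were -0.33, -0.15 and -0.11.

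Among efflux pumps of conjugates and drugs, every edgeR call was upward. Of 8 tested, 1 was called higher from 2 to 12 months, 3 from 2 to 24 months and 1 from 12 to 24 months, and none lower by edgeR (1 lower at unadjusted p under 0.05 in each comparison, 0 by DESeq2 and 0 by limma voom). Abcc3, a pump of organic anion conjugates, rose from 6.65 ± 0.613 CPM at 2 months to 13.1 ± 0.667 at 24 months (log2 0.98, adjusted p = 0.000341). Abcb1a, a broad drug pump, rose from 7.59 ± 0.565 to 15.5 ± 1.57 CPM at 12 months (log2 1.03, adjusted p = 0.000644) and was at 11.7 ± 0.996 at 24 months. Abcc1 rose from 1.93 ± 0.707 to 3.43 ± 0.316 CPM from 2 to 24 months (log2 0.83, adjusted p = 0.0429). In that comparison DESeq2 called 4 pumps higher and limma voom 2. Abcc10 was at 9.53 ± 1.02 CPM at 2 months and 7.28 ± 1.65 at 24 months (log2 -0.39, adjusted p = 0.138). The medians were 0.55, 0.73 and 0.07.

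Prostaglandin genes, which bear on the substrates of Slco2a1, were called higher in 2 of 13 from 2 to 12 months, and in 2 higher and 1 lower from 2 to 24 months. In the latter comparison DESeq2 called 4 higher and 1 lower, and limma voom 1 higher and 1 lower. Hpgds, which makes prostaglandin D2, rose from 0.797 ± 0.181 to 3.29 ± 0.267 CPM from 2 to 24 months (log2 2.04, adjusted p = 0.00117). Ptgis, the prostacyclin synthase, rose from 0.0275 ± 0.00232 to 0.252 ± 0.202 CPM (log2 3.09, adjusted p = 0.0242). It drew 1 count in each 2-month library and 6, 5 and 24 in the oldest, so its small SD at 2 months does not measure precision. Ptges3, a co-chaperone with prostaglandin E synthase activity, fell from 49 ± 3.26 to 37 ± 0.805 CPM (log2 -0.41, adjusted p = 0.00831). Hpgd, the enzyme that breaks prostaglandins down after uptake, was at 3.97 ± 0.708 CPM at 2 months and 5.22 ± 1.09 at 24 months (adjusted p = 0.184). From 12 to 24 months edgeR called 0, with 1 lower at unadjusted p under 0.05 and 0 by DESeq2 or limma voom. Medians were 0.26, 0.40 and 0.24.

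Steroid and conjugate enzymes changed in both directions. Of 11 tested, 1 was lower from 2 to 12 months, 3 were higher and 2 lower from 2 to 24 months, and 1 was higher and 1 lower from 12 to 24 months. Papss2, which makes the sulfate donor for sulfated steroids, fell from 191 ± 25.8 to 91.7 ± 15 CPM from 2 to 24 months (log2 -1.06, adjusted p = 0.000806), and Papss1 from 75.9 ± 5.05 to 57.1 ± 6.59 (log2 -0.41, adjusted p = 0.0208). Hsd11b1, which regenerates active glucocorticoid, rose from 0.435 ± 0.194 to 1.87 ± 0.459 CPM (log2 2.09, adjusted p = 0.0212). Akr1c18, which inactivates progesterone, was at 165 ± 8.34 CPM at 2 months, fell to 93.7 ± 31.3 at 12 months (log2 -0.82, adjusted p = 0.0289) and rose to 218 ± 41.5 at 24 months (log2 1.22, adjusted p = 0.00625). The medians were -0.04, 0.31 and 0.25.

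Known scaffolds and regulators of Slco genes in other organs were mostly scarce or without a call. Pdzk1, the scaffold of Slco1a1 in liver, and Hnf4a had 0 counts, and the xenobiotic receptors Nr1i2 and Nr1i3 averaged at most 0.112 CPM at any age. Of 12 tested, edgeR called 0 from 2 to 12 months (2 higher and 1 lower at unadjusted p under 0.05, 1 higher and 1 lower by DESeq2, 0 by limma voom), 2 higher from 2 to 24 months and 1 higher from 12 to 24 months. The oestrogen receptor Esr1 rose from 0.0951 ± 0.0913 to 0.504 ± 0.0203 CPM from 2 to 24 months (log2 2.33, adjusted p = 0.0272). Stat5b, which carries growth hormone and prolactin signals, rose from 18.5 ± 2.16 to 26.7 ± 2.1 CPM from 12 to 24 months (log2 0.53, adjusted p = 0.0323). Medians were 0.11, 0.04 and 0.07.

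Likeness of pattern was measured as Pearson's r of log2 CPM over the 9 libraries, which share their depth and composition, and is given as a description. Slco1a5 and Slco1a6 had r of 0.93 with each other. For Slco1a6 the 3 most alike named genes were Srp9 (0.986), Cnbp (0.982) and Kyat1 (0.976), and for Slco1a5 they were Tcea3 (0.981), Wnk2 (0.981) and Slc43a2 (0.967). A high r does not mean a change of like size. From 2 to 24 months the log2 fold changes of Srp9, Cnbp and Kyat1 were -0.70, -0.30 and -0.54, against -3.44 for Slco1a6. Slc43a2, an amino acid transporter, was at 79.7 ± 12.9 CPM at 2 months, 76.9 ± 18 at 12 months and 26 ± 2.77 at 24 months, a smaller fall than that of Slco1a5. Slco1a4 was most like Cyp2d22 (0.977), Gng7 (0.973) and Prickle2 (0.932), and its r with Slco1a5 was -0.69. Slco2b1 was most like Basp1 (0.984), the adhesion molecule gene Vcam1 (0.983) and Arhgef2 (0.980), and Slco2a1 like Vstm4 (0.977), Axl (0.971) and Adamts15 (0.964). For Slco4a1 they were Paqr4 (0.974), Plxdc2 (0.951) and Tspan7 (0.950), and for Slco3a1, which was scarce, Bambi (0.963), Fads2 (0.941) and Arhgef33 (0.940).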

How the data were processed

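Bulk RNA-seq of 9 lacrimal gland libraries (3 per age) was analysed from the counts per gene that the authors deposited, reads having been 100 bp paired-end on a BGISEQ500RS, per the labels' protocols. The tools named are cutadapt, FastQC, STAR, HTSeq and DESeq2, with the build GRCm38, per the submitters' processing notes; no source used here gives versions, annotation release or strand setting. The authors also deposited a log2 table, whose values equal log2(count divided by size factor + 1) within 1e-06 for 100% of genes; it was not used for results. Of 54232 genes, 54079 had a GENCODE M21 symbol. Counts were fitted with edgeR 4.0.16 (quasi-likelihood test with TMM factors; genes kept by filterByExpr at a minimum count of 10; 3 ages in 1 model with 6 residual degrees of freedom), and the Benjamini-Hochberg adjustment ran over 14944 genes; adjusted p under 0.05 is a call. CPM is the count scaled by the TMM-adjusted library total; log2 CPM for correlations had a prior count of 2; per-length values used the exons of all transcripts joined.

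Alternatives were other scalings (RLE, library totals alone), other filters (a minimum count of 3, none), DESeq2 1.42.0, limma 3.58.1 voom, only the 6 libraries compared, the replicate number as a block, each library left out, and 2 sets of libraries with transcripts of another tissue left out. The members and lists were chosen with earlier results of these data known. Named were all members, up to 3 called genes per list by smallest p, called neighbours on chromosome 6 and the 3 genes most alike in pattern; other genes with values were picked after these were seen. Scripts were tested on simulated data. Sequences are RefSeq windows. Some genes counted in the lists are not reported here by name.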

Additional observations from a re-analysis of the deposited data

How the results depend on the processing

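The 2 falls from 2 to 24 and from 12 to 24 months in Slco1a5 and Slco1a6 kept adjusted p under 0.05 under all 19 alternatives, with log2 fold changes of -2.96 to -2.30 (Slco1a5) and -3.57 to -3.14 (Slco1a6) from 2 to 24 months and of -3.21 to -2.72 and -3.13 to -2.68 from 12 to 24 months. The other calls depended on settings. From 2 to 24 months 6 members were called, against 3 with the replicate block, 2 without the salivary-rich libraries and 2 to 5 with a library left out. The count was 2 without 24 months replicate 3 (Slco1a5 and Slco1a6) and 3 without 2 months replicate 1. From 2 to 12 months the count of 0 became 1 with library totals alone, 2 with no count filter, 2 with DESeq2, 1 with limma voom and 1 with only the 6 libraries compared, and 0 to 1 with a library left out. The members gained were Slco2b1 and Slco1a6: without 12 months replicate 3 it was Slco2b1, and without 24 months replicate 3 Slco1a6. From 12 to 24 months the count of 3 stayed at 2 to 3 throughout. Library totals alone moved the median of all genes to 0.31 from 2 to 12 months and 0.31 from 2 to 24 months, but no called member changed direction. No pairing by the replicate numbers in the titles was seen. Same-numbered libraries deviated from their group means with correlations of -0.154 to 0.061, and 0 of 9 libraries correlated best with their own number. Transcripts of other tissues also enter these deviations, so a shared litter, day or batch is not excluded. Why the calls changed between settings was not tested. Slco1a4, Slco3a1 and Slco4a1 had few counts, at most 92, 70 and 262 in a library, and Slco1a1 and Slco1c1 had too few to test.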
